A study of Mus musculus with 4 samples.

Results

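The strongest TBX5 binding sites of the embryonic mouse forelimb, taken here as the top 10% of the deposited peak list by signal value, comprised 1123 of 11224 peaks. A peak belonged to this set when its signal value, the strength that the authors' peak caller gave it, was at least 61.27. TBX5 ChIP-seq, in which an antibody pulls down protein-bound chromatin fragments for sequencing, was done on forelimbs of wild-type outbred ICR embryos at embryonic day 10.5. The series comprised 2 libraries precipitated with a TBX5 polyclonal antibody and 2 input libraries of sheared chromatin. Both groups shared tissue, strain, genotype and stage, and the labels do not say whether forelimbs of several embryos were pooled. One list was deposited for the 2 TBX5 libraries together, so each peak has 1 value, the spread between replicates cannot be given, and read depth is unknown. A signal value averages over all cells of the limb bud, so binding in more cells and stronger binding per cell cannot be told apart. The list holds no expression values, so the tissue label was not checked against marker genes.

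TBX5 is a T-box transcription factor that binds DNA through a conserved domain and is needed for the forelimb bud to form. In the early limb it acts upstream of Fgf10, the growth factor that starts the signalling loop between limb mesenchyme and the overlying ectoderm. Limb regulators of this kind are often controlled by many enhancers spread over large gene-poor intervals. A ChIP-seq peak marks where fragments pile up, and its summit is the position of the highest pile.

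The strong peaks were selected on the signal value, which is given as a description only. They ranged from 61.27 to 266.0, a 4.34-fold range. Their median was 79.9 and their quartiles were 69.1 and 99.6. The other 10101 peaks had a median signal of 25.6, with quartiles of 19.6 and 34.9. No step separated the sets at the threshold. Positions are given as deposited, and the genome build of the list is unresolved. The labels name mm10, but 69 summits lay beyond the last RefSeq gene of that build, as described below. Positions outside the stretch of chromosome 16 described below should therefore not be looked up on mm10. The weakest strong peaks lay on chromosome 1 at 14347751 to 14348166 (signal 61.27), on chromosome 4 at 8723701 to 8723839 (61.29) and on chromosome 1 at 77216762 to 77217177 (61.29). Just below the threshold was a peak on chromosome 4 at 32263801 to 32263911 (61.26). It was followed by peaks on chromosome 2 at 94751843 to 94752032 (61.24) and on chromosome 10 at 27005328 to 27005517 (61.24). The score that records reproducibility between the replicates (irreproducible discovery rate, IDR) was at its ceiling of 1000 in all 1123 strong peaks. It reached that ceiling in 3968 (39.3%) of the others and in 1112 of the 1122 peaks of the next 10% by signal. All 1123 also had the strongest q-value of the list, 0.000113, which 3208 (31.8%) of the others shared. Score and q-value come from the same peak calls as the signal that chose the set, so these differences were not tested. Neither measure ranks the strong peaks among themselves.

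Strong peaks were narrow and did not share 1 width. Their median width was 229 bp with quartiles of 191 and 278.5 bp. The most frequent width in the list, 416 bp, was found in 47 strong peaks (4.19%) and in 9412 others (93.2%). Of the strong peaks, 1047 (93.2%) were narrower than this and 29 (2.58%) wider. Among the others these numbers were 681 (6.74%) and 8 (0.0792%). Narrow peaks were therefore not confined to the strong set. In the next 10% by signal, from 44.9 to 61.26, 524 of 1122 peaks (46.7%) were narrower and 597 (53.2%) had the common width. Below that, the common width was held by 91.0% or more of each 10%. Width and signal come from the same peak calls, so these differences were not tested.

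Within the strong set, width grew with signal. In the lowest of 5 equal groups by signal (61.27 to 66.7) the median width was 189 bp, with quartiles of 162 and 228 bp. The second group (66.7 to 75.3) had the same median of 189 bp. The next 3 had medians of 219, 245 and 298 bp, and the top group (106.6 to 266.0) had quartiles of 272 and 360 bp. The 47 strong peaks at 416 bp were mostly near the threshold, with 33 in the lowest group and a median signal of 63.6. Of the 29 wider ones, 23 were in the top group, and their median signal was 144.4. The plot of width against signal shows these as separate bands. In 964 strong peaks (85.8%) the summit lay within the middle 20% of the interval.

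**Figure D1:**
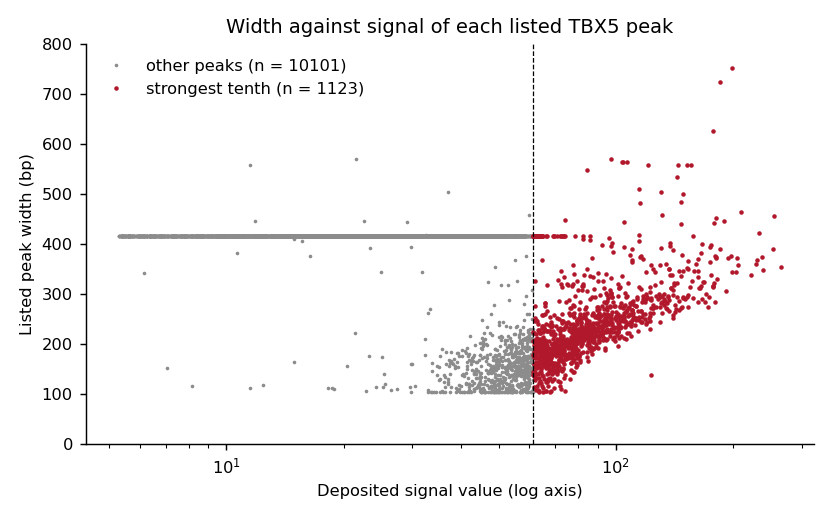
Listed width in bp (vertical axis) against deposited signal value (horizontal log axis) for each of 1123 strong peaks (red) and 10101 other peaks (grey), with the threshold of 61.27 as a dashed line. The others form a line at 416 bp, while strong peaks form a band that widens with signal, and 29 lie above the line.

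The widest strong peaks were few. The widest measured 751 bp, at 75277595 to 75278345 of chromosome 2, with signal 198.2. It was followed by 724 bp on chromosome 3 at 30126883 to 30127606 (signal 185.0) and 626 bp on chromosome 3 at 99469881 to 99470506 (signal 178.0). The next were 570 bp on chromosome 6 at 51146419 to 51146988 (97.5) and 565 bp on chromosome 2 at 171559866 to 171560430 (104.2). A further summit lay within 500 bp in 11 of the 29 peaks wider than 416 bp (37.9%). This held for 10 of the 47 at 416 bp (21.3%) and for 118 of the 1047 narrower ones (11.3%). The 29 include an interval of 564 bp on chromosome 14 that is listed separately for each of its strong summits, 22868015 and 22868225. The narrowest strong peaks were 104 bp wide, on chromosome 2 at 110326879 to 110326982 (67.6) and on chromosome 5 at 93057158 to 93057261 (63.5). The next were 105 bp on chromosome 8 at 27788161 to 27788265 (64.8), 106 bp on chromosome 10 at 67598629 to 67598734 (66.3) and 107 bp on chromosome 6 at 4507996 to 4508102 (63.5). All 5 of the narrowest had signals under the lower quartile of the set, 69.1.

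Strong summits lay closer to each other than other summits lay to them. The nearest other strong summit was at a median distance of 246.4 kb (quartiles 51.1 and 1033 kb). From the other peaks, the nearest strong summit was at a median of 471.7 kb (quartiles 112.9 and 1502 kb). Another strong summit lay within 10 kb of 130 strong peaks (11.6%, 95% exact binomial interval 9.76 to 13.6%). A strong summit lay within 10 kb of 657 of the other peaks (6.50%, interval 6.03 to 7.003%). The intervals do not overlap, but they cover counting error only and treat peaks as independent, which close neighbours are not. At 50 kb the shares were 24.6% and 15.7%, and at 100 kb 35.0% and 23.4%. Peaks of the next 10% lay in between, at 8.11% within 10 kb (interval 6.58 to 9.86%). Below 500 bp the order did not hold, with 13 strong peaks (1.16%) and 127 others (1.26%).

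**Figure D2:**
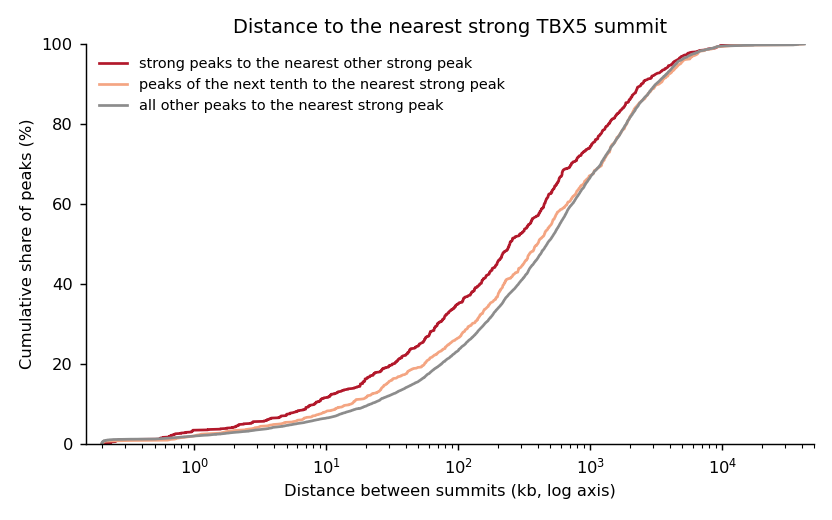
Cumulative share of peaks in percent against the distance in kb (log axis) to the nearest strong summit, for strong peaks (red), the next 10% by signal (orange) and all other peaks (grey). The red curve lies above the others from 1 kb to 1000 kb and reaches 11.6% at 10 kb, against 8.11% and 6.50%.

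Each 10% of the list by signal holds the same number of peaks to within 1, so spacing inside it can be set beside spacing inside the strong set. A neighbour from the same 10% lay within 10 kb of 11.6% of strong peaks. In the 8 groups between the weakest and the strongest this share was 3.38% to 6.77%. The weakest 10% had a larger share, 26.8%, most of it from neighbours within 500 bp (20.7%, against 1.16% of strong peaks). The median distance to the nearest peak of the same group was 246.4 kb in the strong set, 231.1 kb in the weakest 10%, and 381.1 to 503.0 kb in the others. Strong peaks with a strong neighbour within 10 kb had a median signal of 85.5, against 79.4 for the 993 without one.

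When strong summits no more than 10 kb apart were chained, 993 stayed single, 51 formed pairs, 8 formed chains of 3 and 1 a chain of 4. The chain of 4 lay on chromosome 7, between summits at 149733859 and 149745811, a span of 12.0 kb with signals of 61.5 to 110.3 and 1 weaker summit between them. The 5 closest pairs of strong summits whose intervals did not overlap were 252 bp apart on chromosome 3 (99770102 and 99770354), 258 bp on chromosome 8 (27783459 and 27783717), 265 bp on chromosome 3 (66226512 and 66226777), 308 bp on chromosome 14 (22867707 and 22868015) and 518 bp on chromosome 14 (22867707 and 22868225). The summit at 22867707 belongs to both of the last pairs. The signals in the first of these pairs were 101.9 and 65.7, and those in the last were 87.4 and 106.7. With gaps of up to 100 kb, 1 chain stood out by its size. It held 12 strong summits on chromosome 14 between 22685791 and 23121287, a span of 435.5 kb with 10 weaker summits in between, while no other chain held more than 5.

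Weaker peaks accompanied many strong ones. The share within 10 kb was near that of the other peaks when all distances were counted. Between 500 bp and 10 kb it was larger, at 34.6% of strong peaks against 25.2% of the others. At least 1 weaker summit lay within 10 kb of 464 strong peaks (41.3%, interval 38.4 to 44.3%), and within 50 kb of 781 (69.5%). Of these 464 peaks, 281 had 1 such companion, 124 had 2, and 1 peak had 6. Such a companion lay within 500 bp of 126 strong peaks (11.2%, interval 9.43 to 13.2%). A summit from outside the strong set lay within 10 kb of 39.6% of the other peaks (interval 38.7 to 40.6%). Within 500 bp this held for 19.7% of them (18.9 to 20.5%), a larger share than in the strong set. How many neighbours can be weaker depends on the signal of a peak, so neighbours of any signal were counted as well. Within 10 kb, 46.3% of strong peaks (interval 43.4 to 49.3%) and 42.3% of the others (41.3 to 43.3%) had a neighbour of any signal. Within 500 bp the shares were 12.4% (interval 10.5 to 14.4%) and 20.9% (20.1 to 21.7%), so that the others had the larger share. Between 500 bp and 10 kb they were 39.4% (interval 36.5 to 42.3%) and 27.7% (26.8 to 28.5%), and strong peaks had the larger share. A neighbour weaker than the peak itself lay within 500 bp of 11.8% of strong peaks (interval 10.01 to 13.9%). The same held for 9.95% of the others (9.37 to 10.5%), with overlapping intervals. This count favours peaks of high signal, since more of the list is weaker than they are. No order at short range is drawn from it. The division at 500 bp was chosen after the values were seen.

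Companions closest to a strong summit lay on 1 side of it. There were 116 pairs of a strong summit and a weaker one no more than 250 bp apart, and in all 116 the weaker summit had the higher coordinate. These pairs came from 19 chromosomes, and the shortest distance was 199 bp. In 90 of them the distance was 210 bp or less. Between 250 and 500 bp the weaker summit was at the higher coordinate in 6 of 12 pairs, and between 500 and 1000 bp in 39 of 79. Between 1000 and 2000 bp it was there in 64 of 97 (66.0%), and from 500 bp to 10 kb in 332 of 600 pairs (55.3%). Close companions were also one-sided in pairs without a strong peak. There the weaker summit had the higher coordinate in 681 of 718 pairs up to 250 bp apart (94.8%). From 1000 to 2000 bp it did so in 166 of 291 (57.0%), and from 500 bp to 10 kb in 960 of 1842 (52.1%). The one-sidedness is thus not particular to strong peaks. Its source was not tested.

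**Figure D3:**
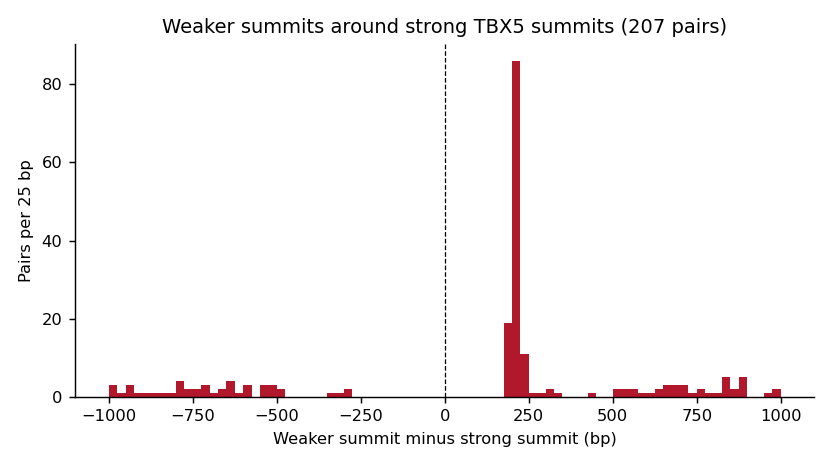
Number of pairs per 25 bp (vertical axis) by the position of the weaker summit relative to the strong summit in bp (horizontal axis), for the 207 pairs no more than 1000 bp apart. The peak at the right of 0 holds the 116 pairs within 250 bp, and the same range to the left of 0 is empty.

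Close companions were also weak relative to their strong neighbour. In the 116 pairs within 250 bp the weaker signal had a median of 18.8, or 0.231 of the stronger (quartiles 0.141 and 0.357). In the 600 pairs from 500 bp to 10 kb it had a median of 28.5, or 0.325 of the stronger. The q-value of the weaker peak exceeded 0.05 in 25 of the 116 close pairs (21.6%) and in 38 of the 600 farther ones (6.33%). The companions within 250 bp nevertheless had a median IDR score of 1000. In the 718 pairs of other peaks within 250 bp, the weaker peak had a median score of 770. Its q-value exceeded 0.05 in 373 of them (51.9%), against 261 of 1842 pairs of other peaks from 500 bp to 10 kb (14.2%). The weaker signal in these pairs was at a median 0.435 of the stronger within 250 bp and 0.654 farther out. That close companions were weaker than farther ones was thus not particular to strong peaks.

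The 5 strong peaks with the densest surroundings had 10 to 15 other summits within 50 kb. On chromosome 18 the peak at 55111639 to 55111858 (signal 62.3) had 15, and the peak at 55138089 to 55138485 (138.1) had 13. On chromosome 8 the peak at 27978816 to 27979020 (62.1) had 12. The peaks on chromosome 3 at 66179034 to 66179322 (75.9) and on chromosome 6 at 52176144 to 52176464 (75.0) had 10 each. At the other extreme, a peak on chromosome 6 at 12308785 to 12309039 (88.4) was 2539 kb from any other summit. It was followed by peaks on X at 158378682 to 158378813 (63.6; 1182 kb), chromosome 18 at 19071623 to 19071848 (68.9; 1145 kb), chromosome 9 at 82600625 to 82600805 (78.7; 979.5 kb) and chromosome 5 at 23858429 to 23858615 (66.2; 850.3 kb). Strong signal was thus found both in crowded intervals and at summits with no listed neighbour for most of a megabase or more.

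On a scale of 1 Mb windows, 677 of the 2066 windows with any peak held a strong one (32.8%). Each of the other groups of 10% by signal was spread over more windows, 708 to 819. Windows with 5 or more strong peaks numbered 20, and together they held 131 strong peaks (11.7%). The other groups of 10% by signal had 2 to 14 windows with 5 or more of their own peaks. The window with most strong peaks was on chromosome 9 from 87 to 88 Mb, where 12 of 31 peaks were strong. Their signals ran from 66.0 to 141.4, the strongest at 87959865 to 87960186. On chromosome 14, neighbouring windows from 22 to 23 Mb and from 23 to 24 Mb held 11 of 37 and 9 of 33. The strongest peaks there were at 22685494 to 22686052 (155.9) and at 23834784 to 23835185 (137.4). In this region a pair of listed strong summits, at 22868015 (103.7) and 22868225 (106.7), shared 1 interval. The window on chromosome 8 from 27 to 28 Mb held 9 of 34 peaks, none with a signal above 84.1, the strongest at 27462256 to 27462495. The last of these windows, on chromosome 3 from 66 to 67 Mb, held 8 of 31 with signals of 65.0 to 162.2, the strongest at 66339677 to 66340022. Dense windows therefore differed in how strong their strongest peak was.

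Strong peaks were spread over all 20 chromosomes of the list, roughly in step with the other peaks. They made up 10.01% of all peaks and from 7.35% (chromosome 19, 23 of 313) to 12.7% (chromosome 16, 54 of 424) of the peaks of a chromosome. For 19 of 20 chromosomes the 95% exact binomial interval of this share included 10.01%. The exception was chromosome 4, with 48 of 638 (7.52%, interval 5.60 to 9.85%), 1 of 20 intervals at the 95% level. These differences depended on the threshold: in the top 20% by signal, the ratio of strong peaks to those expected from the other peaks was 0.994 on chromosome 4 and 0.988 on chromosome 16, against 0.732 and 1.31 in the top 10%. Chromosome X had few strong peaks, 14, but also few peaks, 152, so that its share was 9.21% (interval 5.13 to 15.0%). Per megabase between the first and last summit, X held 0.0876 strong peaks, against 0.463 ± 0.0926 on the 19 autosomes (mean ± SD, n = 19 chromosomes, not replicates). Median signals of the strong peaks lay between 72.5 on chromosome 18 and 86.8 on chromosome 13, and median widths between 194 bp on X and 245 bp on chromosome 14. Close pairing per chromosome rested on small counts. Over the list, another strong summit lay within 10 kb of 11.6% of strong peaks. The highest shares were 14 of 63 on chromosome 14 (22.2%) and 14 of 66 on chromosome 12 (21.2%). The lowest were 0 of 50 on chromosome 10 and 0 of 31 on chromosome 15. These are the extremes of 20 chromosomes, and each close pair counts for both of its peaks. Whether chromosomes differ in close pairing was not tested.

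**Figure D4:**
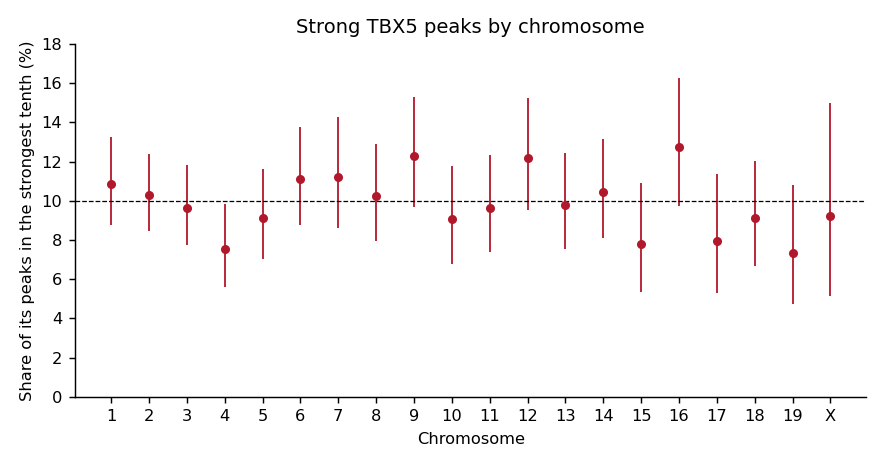
Percent of each chromosome's peaks that belonged to the strong set (points) with 95% exact binomial intervals (bars), which cover counting error only; the dashed line is the 10.01% of the whole list. Only the interval of chromosome 4, at 7.52%, lies wholly below the line.

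Gene names could be attached on 1 chromosome only. The labels name the mm10 build (GRCm38), but 69 summits on 5 chromosomes, 10 of them strong, lay beyond the last gene of any kind that RefSeq places there on GRCm38.p6, by up to 7.07 Mb on chromosome 7. Chromosome 16 was different. There 35 of 424 summits (8.25%) lay within 1 kb of a RefSeq gene start, against 241 of 10317 (2.34%) on the 18 other chromosomes compared, of which the highest had 5.75%. Positions were therefore read on GRCm38 only between the first and last of those 35 summits, 4593816 and 92400470, a stretch with 390 peaks, of which 45 were strong. Agreement was examined only to within 1 kb, so offsets from gene starts in single bases hold only if the stretch follows GRCm38 to the base, which was not tested. This step and the genes named below were chosen after the values were seen, and a nearest gene is not a shown target.

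Most strong peaks on this stretch, like most of the others, lay over 100 kb from a protein-coding gene start. The median distance to the nearest protein-coding start was 201.1 kb (quartiles 90.6 and 317.9 kb), against 115.8 kb (38.1 and 309.6 kb) for the 345 others. None of the 45 lay within 1 kb of a protein-coding start, a share with an exact interval of 0 to 7.87% (3 counts of 45 would be 6.67%). Of the others, 21 did (6.09%, interval 3.81 to 9.15%), so that a difference was not detectable at this number. Over 100 kb from such a start lay 29 strong peaks (64.4%, interval 48.8 to 78.1%) and 187 others (54.2%, interval 48.8 to 59.5%). Inside a protein-coding gene lay 19 strong peaks (42.2%) and 135 others (39.1%), and the exon or intron was not resolved. Counting starts of every gene type, 1 strong peak and 34 others (9.86%) lay within 1 kb. Because such summits chose and bounded the stretch, it holds all of them, and shares near a start are not independent of that choice. Those 34 had a median signal of 22.8 and none exceeded 54.5. They included a peak near the start of Zfp148, which encodes a zinc-finger transcription factor (signal 23.8), and one near that of Gabpa, which encodes an ETS-family factor (25.7).

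**Figure D5:**
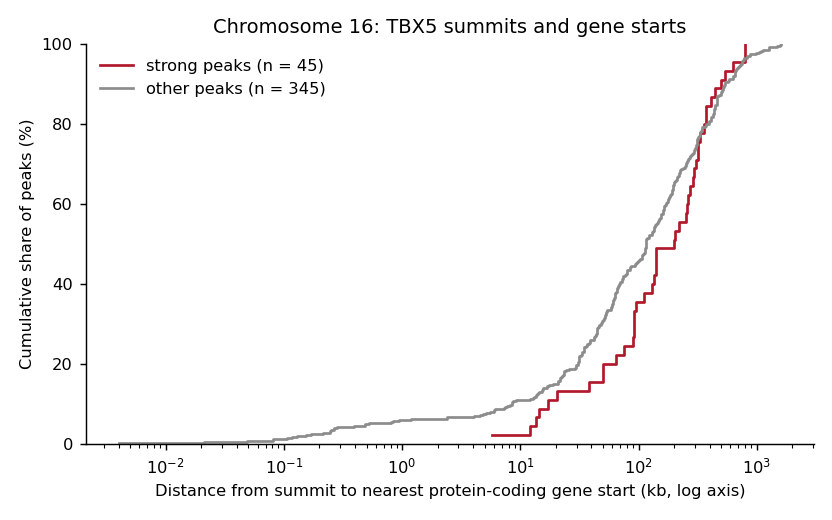
Cumulative share of peaks in percent against the distance in kb (log axis) from summit to nearest protein-coding gene start, for 45 strong peaks (red) and 345 others (grey) on chromosome 16 read on GRCm38. The red curve starts at 5.82 kb, and the grey curve reaches 6.09% at 1 kb.

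Of these 45 strong peaks, 6 had Robo2 as the nearest protein-coding gene. Robo2 encodes a receptor for the SLIT guidance proteins. The 6 signals were 63.4, 65.3, 65.8, 74.0, 75.0 and 160.5, and 5 of the summits lay inside the gene. Only the summit at 74397361 (63.4) was near its start, at 14.5 kb, and the strongest, at 74506574, was 94.7 kb upstream of the closest listed start. Robo1, a related receptor gene, was nearest to 1 strong peak (80.1), at 799.8 kb. Epha3, which encodes a receptor for ephrins, was nearest to 3 strong peaks, with signals of 68.5, 100.1 and 189.2 at 261.8 to 411.9 kb from its start, 2 of them inside the gene. A peak within 1 kb of the Epha3 start itself was not in the strong set (43.3). Zpld1, which encodes a zona pellucida-like domain protein, was nearest to 3 strong peaks outside the gene, with signals of 63.5, 73.6 and 137.2 at 135.1 to 291.1 kb. Other peaks also gathered at these genes. Robo2 was nearest to 12 of them, Robo1 to 19, Epha3 to 11 and Zpld1 to 11, where 45 of all 390 peaks on the stretch were strong.

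The highest signal on the stretch, 203.7 at 62468666 to 62469009, was 317.9 kb from the start of Nsun3, which encodes an RNA methyltransferase. The strong peak closest to a protein-coding start was 5.82 kb from that of Pou1f1, which encodes a pituitary POU-domain factor (signal 109.5 at 65514603 to 65514818). A pair of strong summits 699 bp apart, at 31131147 (101.4) and 31131846 (107.1), lay inside Acap2, at 49.7 and 50.4 kb from the start of Xxylt1. Gsk3b, which encodes a kinase that acts in Wnt signalling, was nearest to 1 strong peak (96.9), at 75.7 kb. Among the other peaks, Nsun3 was nearest to 2, Pou1f1 to 4, Xxylt1 to 1 and Gsk3b to 2.

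The strong peak within 1 kb of a gene start of any type belonged to Gm30252, a long non-coding RNA. Its summit at 44616729 (signal 85.1) was listed 500 bp downstream of the start, and a weaker summit at 44616103 (54.5) 126 bp upstream, with the limit on single bases given above. The 250 bases before this start are shown because the listed weaker summit falls in them. They are RefSeq sequence of GRCm38.p6, chr16:44615979-44616228, plus strand, 5′ to 3′, with no capitals, since the summit cannot be placed to the base.
Gm30252 upstream: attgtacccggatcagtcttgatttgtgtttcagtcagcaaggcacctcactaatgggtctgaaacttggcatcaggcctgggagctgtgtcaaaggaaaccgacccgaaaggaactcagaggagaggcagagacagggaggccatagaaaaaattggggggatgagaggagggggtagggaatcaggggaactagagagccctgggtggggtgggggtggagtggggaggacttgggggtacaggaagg
The core of the T-box motif, GGTGTG, was not found in these bases on either strand. It was found on either strand in 5347 of 32851 RefSeq upstream sequences of the same length (16.3%).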

How the data were processed

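The data were 1 list of TBX5 peaks in narrowPeak layout, for the 2 TBX5 libraries together. The deposited signal value of each peak is the peak caller's strength, on a scale not given in the sources used here. The deposited score runs to 1000 and records the IDR, for which the file name gives a threshold of 0.05. Significance is deposited as a −log10 q-value per peak. The submitters' processing notes name FastQC and mm10; the aligner and peak caller are not given in the sources used here. Starts, ends and summits were converted to 1-based positions.

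From these, the set of strong peaks, distances between summits, shares and exact (Clopper-Pearson) 95% binomial intervals were computed with Python 3.11.15, NumPy 2.4.6, SciPy 1.17.1 and pandas 2.3.3, with figures by matplotlib 3.10.9. No hypothesis test was run, since signal chose the set and peaks are not replicates of the experiment. The code recovered 6 of 6 planted quantities in a simulated list of 2050 peaks. The set, its threshold and the measures were chosen with earlier results of these data known. Peaks named were those just inside and outside the threshold, the 5 windows of 1 Mb with most strong peaks, the 5 closest non-overlapping pairs, and the 5 peaks each that were widest, narrowest, most crowded or most isolated. Genes were to be named only where the build matched, which led to the restriction to chromosome 16, added after the data were seen.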

Additional observations from a re-analysis of the deposited data

How the results depend on the processing

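In total 33 alternatives were computed, 32 planned and 1 added after the values were seen, and 11 stayed within the 95% interval of the value reported. Some alternatives changed only the distance, and a share within a distance can only stay or grow as the distance grows. The count is therefore not a measure of how stable the results are. The share of strong peaks at the common width (4.19%) was 0.534% in the top 5% by signal and 28.7% in the top 20%. The share with another strong summit within 10 kb (11.6%) was 4.19% at 2 kb, 24.6% at 50 kb and 35.0% at 100 kb. It was 8.27% after rows within 1000 bp had been joined, 8.72% in the top 5% and 16.4% in the top 20%, in each case above that of the other peaks (4.04%, 3.62% and 10.9%). The share with a weaker companion (41.3%) was 11.2% at 500 bp, 22.3% at 2 kb, 69.5% at 50 kb and 81.9% at 100 kb. It was 34.3% with overlapping or touching rows joined and 27.9% with rows within 1000 bp joined. It was 31.4% with companions at an IDR of 0.01 or below, 44.8% in the top 5%, 34.9% in the top 20% and 34.6% beyond 500 bp. Among the other peaks, the share with a summit from outside the set within 10 kb was 39.6%. That share was 24.8% with overlapping or touching rows joined and 18.5% with rows within 1000 bp joined. For the top 5% it was 41.0%, for the top 20% 37.5%, and beyond 500 bp 25.2%. Strong peaks thus had the larger share with rows joined, in the top 5% and beyond 500 bp, and the others had it in the top 20%. For the IDR setting the share of the others was not computed.

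The ratio of strong peaks to those expected from the other peaks was 1.31 on chromosome 16 and 0.988 in the top 20%. On chromosome 4 it was 0.732, then 0.519 in the top 5% and 0.994 in the top 20%. On X it was 0.913, and 0.198 when the span set the expectation. The cause of these shifts was not tested. No paired analysis was possible because both TBX5 libraries share 1 value per peak, and for that reason no replicate was left out. Without read depth the list cannot show which sites were missed.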
